A study of Mus musculus with 12 samples.

Results

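The vascular endothelial growth factor (VEGF) genes described here are 4 ligands (Vegfa, Vegfb, Vegfc and Pgf), 3 receptor tyrosine kinases (Flt1, Kdr and Flt4) and 2 neuropilins (Nrp1 and Nrp2). They were chosen by gene symbol alone, which gave 9 of the 18211 genes in the table, and all 9 were among the 13563 genes tested. RNA was sequenced from 12 tumors of MC38, a mouse colorectal adenocarcinoma line, grown under the skin of C57BL/6 mice that were 5 weeks old when bought. On day 7 after injection the mice were divided at random into 4 groups, and 3 tumors of each were sequenced: the vehicle controls (CK), each agent alone, and the pair together, PB-020/anti-PD-1. PB-020, which inhibits the receptor of insulin-like growth factor 1 (IGF-1R), was given by mouth at 50 mg/kg every day, and the antibody against the T cell checkpoint receptor PD-1 was injected at 200 µg per mouse on days 9, 12, 15 and 18. The PB-020/anti-PD-1 tumors received both, and every group carried the same MC38 line in the same strain. The tumors were whole pieces of tissue, so fewer cells of a type and less RNA per cell cannot be told apart in any value below. The labels do not say whether each tumor came from its own mouse, so the p values measure the spread between these tumors.

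VEGF ligands are secreted proteins that drive the growth, survival and leakiness of vessels. VEGF-A signals mainly through VEGFR2, the product of Kdr, on blood vessel endothelium. VEGFR1, the product of Flt1, binds VEGF-A tightly with weak kinase activity and also binds VEGF-B and placental growth factor, the product of Pgf. VEGF-C signals through VEGFR3, the product of Flt4, on lymphatic endothelium and on sprouting blood vessels. Neuropilins are co-receptors that hold VEGF at its receptors and that also bind class 3 semaphorins, and Vegfa is a classic target of the oxygen-sensing factor HIF.

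Libraries were of like depth, with 16545394 to 17217035 expected counts each, and the 9 genes drew between 49 and 7202 counts per tumor. Markers of blood vessels were present in every tumor, with Pecam1 (an adhesion molecule of endothelium) at 13.3 to 22.9 FPKM, a count scaled for transcript length and library depth. Prox1, the defining factor of lymphatic endothelium, was at or near 0, with at most 0.12 FPKM. Of 8 markers of colon epithelium, 7 were near 0, with Epcam at no more than 0.54 FPKM and Krt8 and Krt18 at no more than 0.14 FPKM, while Cdh1, the epithelial cadherin gene, had 1.59 to 3.96 FPKM. Of the tumors, 2 stood apart. Anti-PD-1 tumor 1 had a summed level of 10 skeletal muscle markers of 665.6 FPKM against 14.9 to 81.5 FPKM in the other 11, and the highest summed macrophage (1363 FPKM) and T cell (80.6 FPKM) markers. CK tumor 3 had a summed adipocyte marker level of 198 FPKM against 29.1 to 63.5 FPKM elsewhere, with Adipoq, a hormone gene of fat cells, at 11.6 FPKM against at most 1.03 FPKM. Where stated, results are also given without these tumors.

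The promoters of Vegfa, Flt1 and Nrp1 show how the ligand that HIF is known to drive compares with a receptor and a co-receptor that moved alike across these tumors. Each sequence is the 250 bases before the RefSeq start site on GRCm38.p6, and the core of the hypoxia response element, ACGTG or GCGTG on either strand, is in capitals. Vegfa lies on chromosome 17 from 46016993 to 46032377 on the minus strand, Flt1 on chromosome 5 from 147561604 to 147726438 on the minus strand and Nrp1 on chromosome 8 from 128358591 to 128505476 on the plus strand. None of the windows holds an exon base of the GENCODE annotation. The windows of Flt1 and Nrp1 lie inside the RefSeq spans of these genes, which reach further upstream, and the Vegfa window lies directly before the span.
Vegfa, chr17:46032378-46032627, minus strand: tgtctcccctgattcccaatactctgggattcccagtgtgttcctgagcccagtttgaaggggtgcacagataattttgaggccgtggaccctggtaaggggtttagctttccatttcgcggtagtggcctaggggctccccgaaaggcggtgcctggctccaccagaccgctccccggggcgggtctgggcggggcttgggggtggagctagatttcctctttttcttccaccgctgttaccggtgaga
Flt1, chr5:147726012-147726261, minus strand: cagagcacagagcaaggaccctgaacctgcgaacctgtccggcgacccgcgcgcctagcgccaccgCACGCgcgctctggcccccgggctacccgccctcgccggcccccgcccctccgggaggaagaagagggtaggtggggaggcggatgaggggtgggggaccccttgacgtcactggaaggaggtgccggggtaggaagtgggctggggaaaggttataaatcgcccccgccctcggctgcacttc
Nrp1, chr8:128358823-128359072, plus strand: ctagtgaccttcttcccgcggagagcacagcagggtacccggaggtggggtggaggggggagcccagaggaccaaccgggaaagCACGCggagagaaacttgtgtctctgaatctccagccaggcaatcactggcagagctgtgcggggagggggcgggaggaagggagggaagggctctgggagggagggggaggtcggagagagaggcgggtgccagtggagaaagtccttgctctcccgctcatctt
This Vegfa window held no core of the hypoxia element, while those of Flt1 and Nrp1 held 1 each, 184 to 180 bases and 166 to 162 bases before the start. RefSeq gives Vegfa a further start inside the gene, and the 250 bases before it, chr17:46025164-46025413, held 2 cores, 218 to 214 and 211 to 207 bases upstream, with 218 of the 250 bases in GENCODE exons. This core was found in 38.6% of the 32851 promoter windows of this length. The GC box GGGCGG, a site of the Sp1 type that was read on both strands, occurred 2 times before Vegfa, 3 times before Flt1 and 1 time before Nrp1, and in 32.7% of all windows. The GC content was 59.2%, 70.4% and 64.4% for Vegfa, Flt1 and Nrp1 against a median of 52.4%. A match in these letters is a description and does not show that a factor binds there, and the absence of the core holds for the printed Vegfa window only.

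Per length of transcript, the tumors held far more Vegfa, Nrp2 and Vegfb than receptor RNA, while Pgf and Vegfc were at levels near those of Flt1 and Kdr. Vegfa was the most abundant of the 9 genes, with 117 ± 14.7 FPKM (SD, n = 12), followed by Nrp2 with 49.8 ± 4.63 FPKM and Vegfb with 34.8 ± 2.96 FPKM. Nrp1 (6.72 ± 1.53 FPKM), Flt1 (5.36 ± 1.09 FPKM), Pgf (3.59 ± 1.23 FPKM), Kdr (3.18 ± 0.723 FPKM) and Vegfc (2.89 ± 0.731 FPKM) formed a middle group in which the ranges of each pair of neighbours overlapped, so their order is within the spread. Flt4 was lowest with 0.854 ± 0.219 FPKM, and its highest tumor stayed below the lowest tumor of Vegfc. The order was the same in TPM. The ratio of Nrp2 to Nrp1 FPKM was 5.93 ± 0.776 (SD, n = 3) in CK, 7.07 ± 0.780 under PB-020, 8.91 ± 2.17 under anti-PD-1 and 9.10 ± 1.52 in PB-020/anti-PD-1. Its range in CK, 5.37 to 6.82, overlapped that under PB-020 (6.22 to 7.76) and lay below those under anti-PD-1 (6.86 to 11.2) and the combination (8.18 to 10.9).

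**Figure D1:**
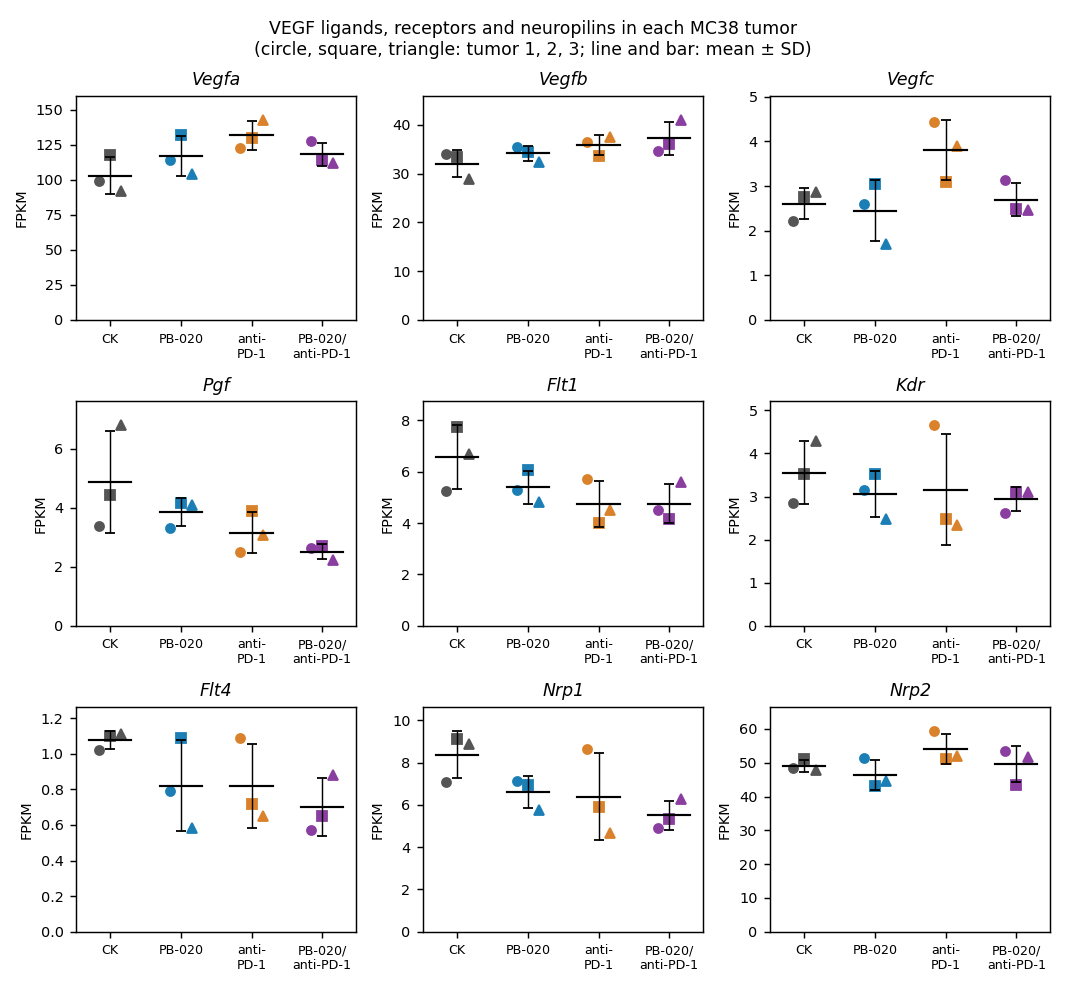
FPKM of the 9 genes in each of the 12 tumors by treatment group, each panel with its own axis from 0. Points are tumors, the line is the mean and the bar the SD of 3 tumors. Pgf ran from 3.39 to 6.78 FPKM in CK and from 2.22 to 2.70 FPKM in PB-020/anti-PD-1, and anti-PD-1 tumor 1 was the highest of its group for Vegfc, Flt1, Kdr, Flt4, Nrp1 and Nrp2.

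Pgf, which encodes the placental growth factor that binds Flt1 but not Kdr, was the only member that passed the edgeR test in PB-020/anti-PD-1 against CK, where DESeq2 and limma on log2(FPKM + 0.1) called Nrp1 as well. Its FPKM was 3.39, 4.42 and 6.78 in the CK tumors, 3.30, 4.16 and 4.09 under PB-020, 2.49, 3.87 and 3.07 under anti-PD-1 and 2.62, 2.70 and 2.22 under the combination. All 3 combination tumors lay below all CK and all PB-020 tumors, while the anti-PD-1 tumors overlapped every other group. Pgf fell 2.03-fold in the combination against CK (log2 change -1.02, SE 0.264, edgeR adjusted p = 0.02). Thus 1 of 9 members was called in this comparison, against 17.9% of all genes tested and 9.6% called lower, and 4 (Vegfb, Pgf, Flt4 and Nrp1) had an unadjusted p under 0.05 against 33.9%. The counts behind it were small, 76 to 158 in CK and 49 to 58 in the combination. Without CK tumor 3, the tumor with adipocyte markers and the highest Pgf, the log2 change was -0.68 and the edgeR adjusted p was 0.086. The call was also lost without CK tumor 2 (log2 change -1.08, edgeR adjusted p = 0.052) or without combination tumor 1, 2 or 3, with edgeR adjusted p of 0.064, 0.05 and 0.061. Pgf and Flt4 are among the genes that the study drew as lowered in the combination in these same tumors, so these values are not independent evidence of that direction.

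Pooling the tumors that received the antibody, alone or with PB-020, against the CK and PB-020 tumors (n = 6 each) asks what the antibody did on average over both levels of PB-020. In this comparison Pgf fell 1.59-fold (log2 change -0.67, SE 0.185, edgeR adjusted p = 0.02), and it was called in all 12 fits that left out 1 tumor, where the log2 change ran from -0.78 to -0.50. Again 1 of 9 members was called, against 24.2% of all genes tested, and 5 of 9 had an unadjusted p under 0.05 against 37.9%. The other 4 were Vegfa, Vegfb, Vegfc and Nrp1, with edgeR adjusted p between 0.091 and 0.12. The share of members called was therefore not above that of all genes. At each level taken alone, edgeR over all 12 tumors did not call Pgf. Its adjusted p was 0.17 for anti-PD-1 against CK and 0.12 for the combination against PB-020.

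Vegfa had a higher mean than CK in all 3 treated groups, with no call by edgeR. Its FPKM was 99.1, 118 and 92.0 in CK, 114, 132 and 104 under PB-020, 123, 130 and 143 under anti-PD-1 and 128, 114 and 112 under the combination. The anti-PD-1 tumors all lay above the CK tumors, and the combination tumors overlapped them. The change under anti-PD-1 alone was 1.28-fold (log2 change 0.36, SE 0.108, 95% interval 0.13 to 0.59, edgeR adjusted p = 0.054), and DESeq2 gave an adjusted p of 0.017. With CK tumor 3 left out, the log2 change was 0.28 (SE 0.116, edgeR adjusted p = 0.17). Under the combination it was 1.15-fold (log2 change 0.20, SE 0.108, edgeR adjusted p = 0.2). As a ratio within each tumor, Vegfa exceeded Pgf 13.6 to 29.2 times in CK and 42.2 to 50.6 times in the combination. The lowest CK ratio was that of CK tumor 3, while CK tumors 1 and 2 had 29.2 and 26.7.

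Vegfc, the lymphatic growth factor, had 2.21, 2.75 and 2.86 FPKM in CK and 4.44, 3.10 and 3.90 FPKM under anti-PD-1. The PB-020 tumors had 2.59, 3.05 and 1.70 FPKM and the combination tumors 3.13, 2.49 and 2.47 FPKM, so only the anti-PD-1 tumors lay wholly above CK. The log2 change under anti-PD-1 was 0.57 (SE 0.218, edgeR adjusted p = 0.12), and without anti-PD-1 tumor 1, its highest tumor, it was 0.45 with an edgeR adjusted p of 0.26. Part of its counts were fractions of reads shared with other transcripts. Vegfb, a ligand of Flt1, ranged from 28.8 to 33.9 FPKM in CK and from 34.7 to 41.1 FPKM in the combination without overlap, with a log2 change of 0.23 (SE 0.0891, edgeR adjusted p = 0.085). With CK tumor 3 left out, the Vegfb change was 0.16 (edgeR adjusted p = 0.26). Across anti-PD-1 against CK, 0 of 9 members were called by edgeR, against 8.26% of all genes tested, and DESeq2 called Vegfa only. At an unadjusted p under 0.05, edgeR counted 3 members (Vegfa, Vegfc and Pgf) against 26.6% of all genes.

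The receptors and Nrp1 had lower mean levels than CK in every treated group, with no call by edgeR over all 12 tumors. Flt1 had 5.26, 7.73 and 6.68 FPKM in CK, 5.29, 6.05 and 4.81 under PB-020, 5.73, 3.99 and 4.50 under anti-PD-1 and 4.52, 4.15 and 5.59 under the combination. Kdr had 2.84, 3.53 and 4.29 FPKM in CK, 3.15, 3.53 and 2.49 under PB-020, 4.65, 2.49 and 2.34 under anti-PD-1 and 2.61, 3.10 and 3.11 under the combination. For both genes every treated group overlapped CK. The combination differed from CK by -0.38 for Flt1 (log2 scale, SE 0.175, edgeR adjusted p = 0.15) and by -0.28 for Kdr (SE 0.249, edgeR adjusted p = 0.47). The 95% interval for Kdr, -0.82 to 0.27, leaves room for a sizeable change either way.

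Flt4 and Nrp1 did separate the combination from CK. Flt4 had 1.02, 1.10 and 1.11 FPKM in CK and 0.57, 0.65 and 0.88 FPKM in the combination, and the single treatments spanned the gap, with 0.79, 1.09 and 0.58 FPKM under PB-020 and 1.09, 0.72 and 0.65 FPKM under anti-PD-1. Its log2 change in the combination was -0.60 (SE 0.251, unadjusted p = 0.031, edgeR adjusted p = 0.11). Nrp1, the neuropilin of arteries and of many immune and stromal cells, had 7.10, 9.13 and 8.89 FPKM in CK, 7.11, 6.95 and 5.75 under PB-020, 8.64, 5.89 and 4.66 under anti-PD-1 and 4.93, 5.31 and 6.26 under the combination. Its log2 change in the combination was -0.54 (SE 0.183, edgeR adjusted p = 0.064), and DESeq2 gave an adjusted p of 0.023. With CK tumor 3 left out, the Nrp1 change was -0.50 (edgeR adjusted p = 0.14). Nrp2, known from veins, lymphatics and many tumor cells, stayed between 43.3 and 59.3 FPKM in all tumors, with a log2 change of 0.04 (SE 0.0891, 95% interval -0.15 to 0.24) in the combination. In all, 4 of 9 members (Vegfb, Pgf, Flt4 and Nrp1) did not overlap between combination and CK on library-scaled counts, against 40.7% of all genes tested. The thresholds of the study's methods, a fold over 1.5 with an unadjusted p under 0.05, were passed by Pgf and Flt4, 2 of 9 members against 8.52% of all genes.

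**Figure D2:**
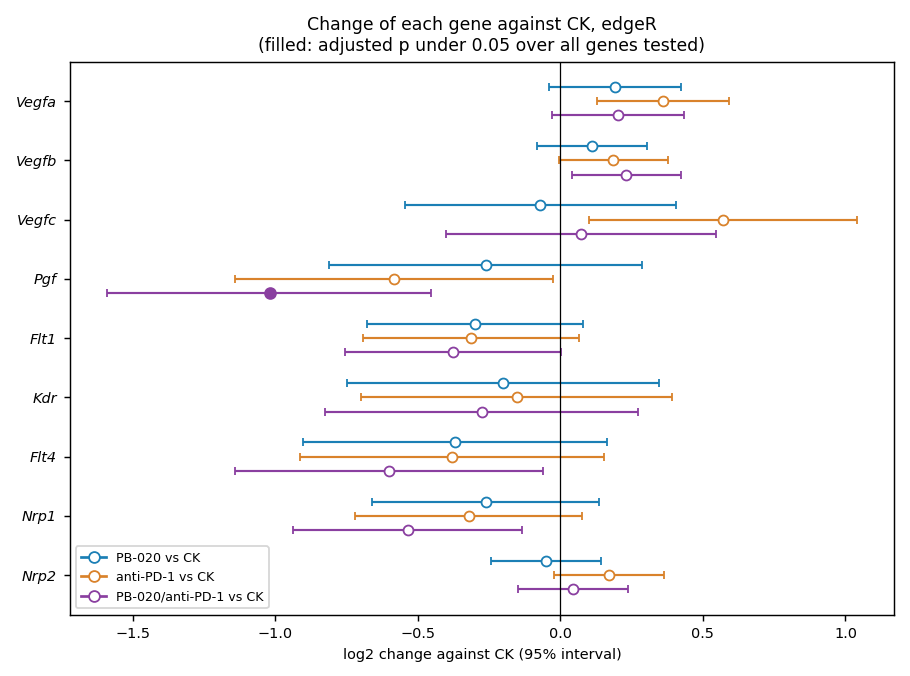
Log2 change of each of the 9 genes under each single treatment and under PB-020/anti-PD-1, against the same 3 CK tumors, with 95% intervals from edgeR. Filled points have an adjusted p under 0.05, and only Pgf in the combination (-1.02) is filled.

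Anti-PD-1 tumor 1, the tumor with muscle transcripts, carried the highest Flt1, Kdr, Flt4 and Nrp1 of its group, and it decided several of these values. Without it, Nrp1 fell under anti-PD-1 alone against CK (log2 change -0.59, SE 0.127, edgeR adjusted p = 0.021), where all 12 tumors gave -0.32 with an adjusted p of 0.28. Flt1 likewise fell (log2 change -0.54, SE 0.147, edgeR adjusted p = 0.049), against -0.31 with an adjusted p of 0.27 over all tumors. Kdr moved from -0.15 to -0.53 with an edgeR adjusted p of 0.095, and Flt4 from -0.38 to -0.63 with an edgeR adjusted p of 0.15. Vegfa was 0.42 without that tumor (edgeR adjusted p = 0.051), and Pgf was -0.41 (edgeR adjusted p = 0.37). The combination values hardly moved in size, but the smaller spread brought Flt1 (edgeR adjusted p = 0.045) and Nrp1 (edgeR adjusted p = 0.0042) below the threshold beside Pgf (edgeR adjusted p = 0.0076). Over both anti-PD-1 groups, Pgf (-0.58), Flt1 (-0.31) and Nrp1 (-0.43) were then called lower, with edgeR adjusted p of 0.03, 0.036 and 0.0032. Of all 13680 genes in this fit, 625 were called under anti-PD-1 alone, 3344 in the combination and 2980 over both groups. Over all tumors these were 1120, 2434 and 3279 of 13563. The choice to leave this tumor out of these readings rests on its markers, and the part of muscle tissue in these values was not tested.

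**Figure D3:**
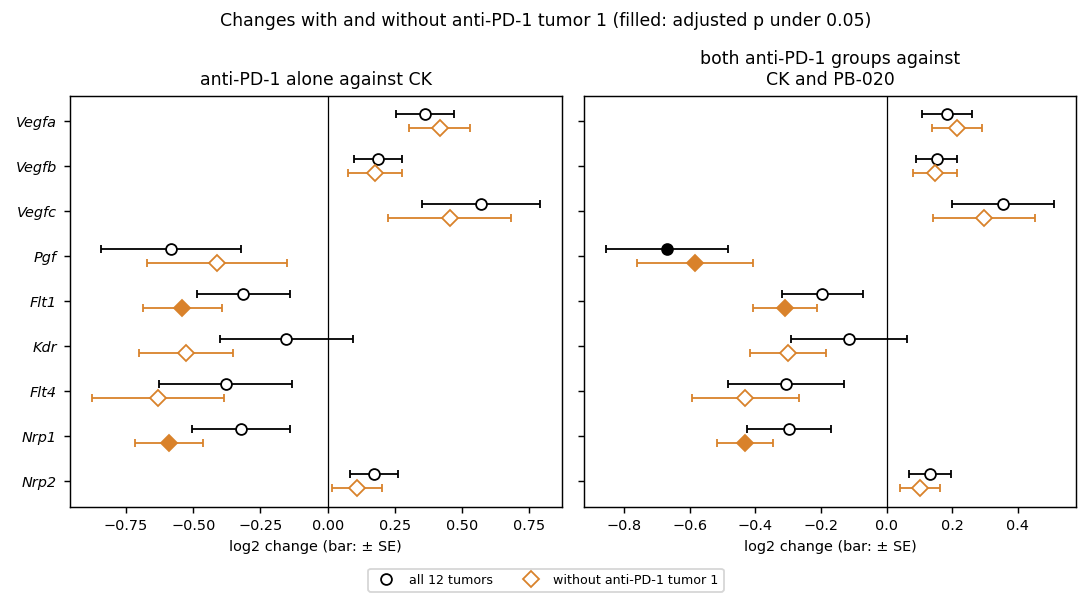
Log2 changes (± SE) of the 9 genes over all 12 tumors (circles) and without anti-PD-1 tumor 1 (diamonds), for anti-PD-1 alone against CK on the left and for both anti-PD-1 groups against CK and PB-020 on the right. Filled points have an adjusted p under 0.05. Leaving out the tumor took Nrp1 from -0.32 to -0.59 and Flt1 from -0.31 to -0.54 on the left, while Vegfa stayed at 0.36 and 0.42.

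The 3 receptors and Nrp1 went up and down together from tumor to tumor after the group means were removed. On the log2 scale, residuals of Kdr and Nrp1 correlated with r = 0.927 over 12 tumors, those of Flt1 and Nrp1 with 0.867, of Flt1 and Kdr with 0.846 and of Kdr and Flt4 with 0.809. Without anti-PD-1 tumor 1, these values over 11 tumors were 0.807, 0.717, 0.673 and 0.715. Each pair shares its libraries, and no test was made. Vegfa had r between -0.25 and 0.031 with the 3 receptors, but between 0.021 and 0.285 without that tumor, so the negative values rest on it. Vegfb and Pgf went in opposite directions (r = -0.768, and -0.826 without that tumor).

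Markers of blood endothelium moved with the receptors. Kdr residuals correlated with the mean of the 19 blood endothelial markers with r = 0.937 and with that of 9 pericyte markers (the cells that wrap capillaries) with 0.939, and without anti-PD-1 tumor 1 the values were 0.835 and 0.863. Flt1 and Flt4 had r = 0.797 and 0.633 with the endothelial mean, and 0.557 and 0.37 without that tumor. Kdr also had r = 0.94 with the neuropilin partner genes, 0.85 with fibroblast, 0.771 with macrophage and 0.736 with T cell markers, which without that tumor were 0.841, 0.538, 0.108 and 0.15. Of the 19 endothelial markers, 2 were called lower in the combination against CK, Cd34 (-0.50) and Cldn5 (-0.98, a junction protein of endothelium), and 1 higher, Ecscr (0.60), all on the log2 scale with a list median of -0.36 against -0.0026 for all genes. Of all genes tested, 9.6% were called lower and 8.35% higher in this comparison. Without anti-PD-1 tumor 1, 5 markers were called lower. Among all genes, 3344 of 13680 were then called in either direction, against 2434 of 13563 over all tumors. The summed endothelial level ran from 587 to 632 FPKM in CK and from 455 to 467 FPKM in the combination, but Cd34 alone made up 66% to 82.3% of the sum in each tumor. Summed without Cd34, a choice made after seeing the data, the list gave 115 to 159 FPKM in CK and 121 to 131 FPKM in the combination, which overlap. No marker of the list was at 0 in any tumor, and their part in the receptor values was not tested.

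Set against the mean of these markers in the same tumor, each receptor had its lowest group mean in the combination, with ranges that overlapped CK. The log2 difference of Kdr to the endothelial mean was 0.24 ± 0.0671 (SD, n = 3) in CK, 0.33 ± 0.209 under PB-020, 0.30 ± 0.154 under anti-PD-1 and 0.22 ± 0.047 under the combination. For Flt1 the same means were 0.69, 0.69, 0.62 and 0.57, and for Flt4 they were -1.22, -1.28, -1.32 and -1.50. The ranges of the combination and CK overlapped for Flt1, Kdr and Flt4. Nrp1 alone of these 4 genes did not overlap, with 1.19 to 1.58 in CK and 1.05 to 1.17 in the combination. Among the ligands, Vegfa, Vegfb and Pgf did not overlap on this scale either, with Vegfa and Vegfb higher and Pgf lower in the combination. Vegfc and Nrp2 overlapped. The share of all genes without overlap on this scale was not computed. This scale was added after seeing the data and carries no test.

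**Figure D4:**
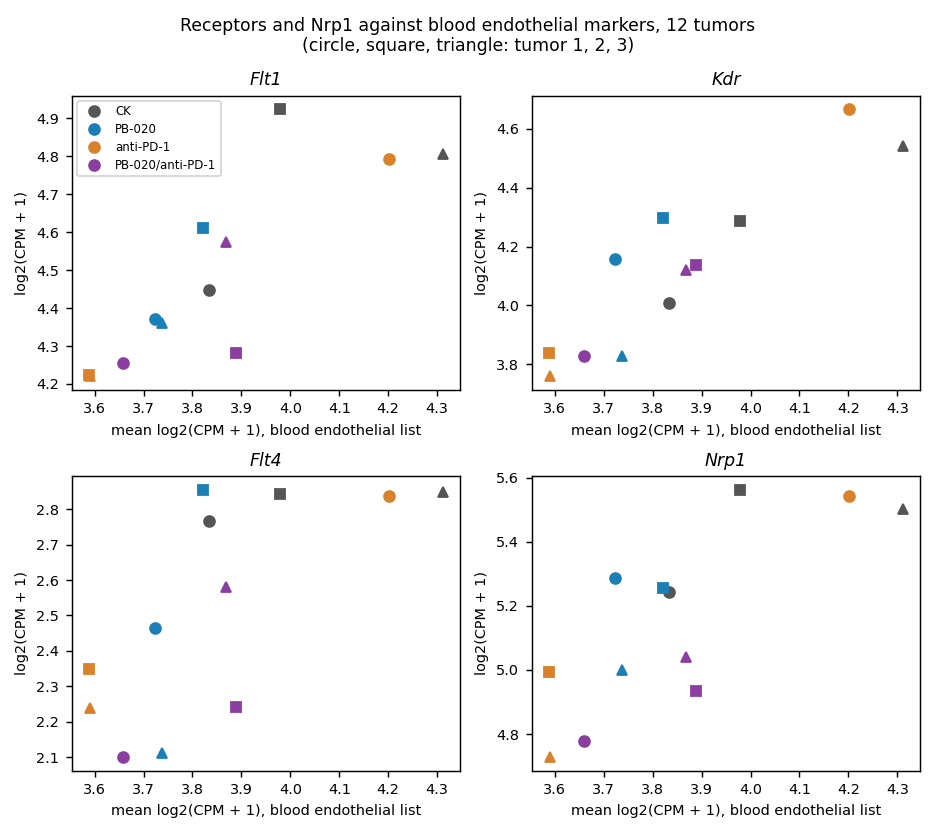
Log2(CPM + 1) of Flt1, Kdr, Flt4 and Nrp1 in each tumor against the mean log2(CPM + 1) of the 19 blood endothelial markers in the same tumor, colored by group. The 12 tumors of Kdr lie close to a rising line, and CK tumor 3 and anti-PD-1 tumor 1 are the tumors with the highest marker mean.

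Several genes that VEGF is known to switch on in endothelium were called lower in tumors that received the antibody. Of 16 such genes, 0 were called under PB-020 alone, against 0% of all genes tested, and 2 had an unadjusted p under 0.05, against 5.46%. Under anti-PD-1 alone 3 were called lower and 0 higher, where 4.08% of all genes were called lower. The same 3 were called lower in the combination, against 9.6% of all genes. These were Apln, a peptide of growing vessel tips, with log2 changes of -0.96 and -1.02, Dll4, the Notch ligand that restrains sprouting, with -0.90 and -0.76, and Adamts1, a secreted protease, with -0.59 and -0.78 (anti-PD-1 and combination, with the same CK tumors). Dll4 had 2.92, 3.69 and 4.74 FPKM in CK, 2.95, 3.10 and 2.43 under PB-020, 2.11, 2.06 and 1.83 under anti-PD-1 and 2.22, 2.19 and 2.19 under the combination, and the 6 tumors that received the antibody lay below all others. Apln had 8.87 to 14.9 FPKM in CK, 9.76 to 12.6 FPKM under PB-020, and 5.08 to 7.24 FPKM in the 6 tumors that received the antibody, again below all others. Over both anti-PD-1 groups, 6 of 16 were called lower and 0 higher, against 12.3% of all genes called lower, with Esm1 (-0.90) and Angpt2 (-0.82), both secreted by tip cells, and Kcne3 (-1.05) added. The list median was -0.15 there and that of all genes 4.49e-05, and Plvap (0.03) and Aplnr (0.41) had values above 0 without a call. Without anti-PD-1 tumor 1, 4 of 16 were called lower over both anti-PD-1 groups, and without CK tumor 3, 5. All-gene calls in either direction were 2980 and 2849 in these fits, against 3279 over all tumors.

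Genes of oxygen sensing and of the hypoxia response, the group that includes the known drivers of Vegfa, were called higher more often than lower. Of 20 genes, 0 were called under PB-020 alone, against 0% of all genes, and 4 had an unadjusted p under 0.05, against 5.46%. Under anti-PD-1 alone 5 were called higher and 1 lower, under the combination 5 and 1, and over both anti-PD-1 groups 7 and 2. Of all genes, 4.18% were called higher and 4.08% lower under anti-PD-1 alone, 8.35% and 9.6% under the combination, and 11.8% and 12.3% over both anti-PD-1 groups. Pgk1, an enzyme of glycolysis, rose in both comparisons with CK (log2 changes 0.72 and 0.72), as did the glucose transporter gene Slc2a1 (0.74 and 0.51), and Hif1a itself rose by 0.45 and 0.43. Slc2a1 had 64.8 to 67.5 FPKM in CK, 71.0 to 100.4 FPKM under PB-020, 88.8 to 125 FPKM under anti-PD-1 and 89.9 to 101 FPKM under the combination, so that all treated tumors lay above CK. Arnt, the partner of HIF, was called lower in the combination (-0.28), and Adm, another hypoxia gene, had -0.32 over both anti-PD-1 groups without a call (edgeR adjusted p = 0.28). The list median was 0.28 under anti-PD-1 and 0.19 under the combination. Without anti-PD-1 tumor 1, 3 of the 20 genes were called higher and 0 lower under anti-PD-1 alone, 7 and 1 under the combination, and 6 and 0 over both groups. Without CK tumor 3, the counts were 5 and 0, 3 and 2, and 6 and 1, so the lead of higher calls in the combination was then small. In the same 3 comparisons, all-gene calls in either direction were 1120, 2434 and 3279 over all tumors. They were 625, 3344 and 2980 without anti-PD-1 tumor 1, and 637, 1577 and 2849 without CK tumor 3.

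**Figure D5:**
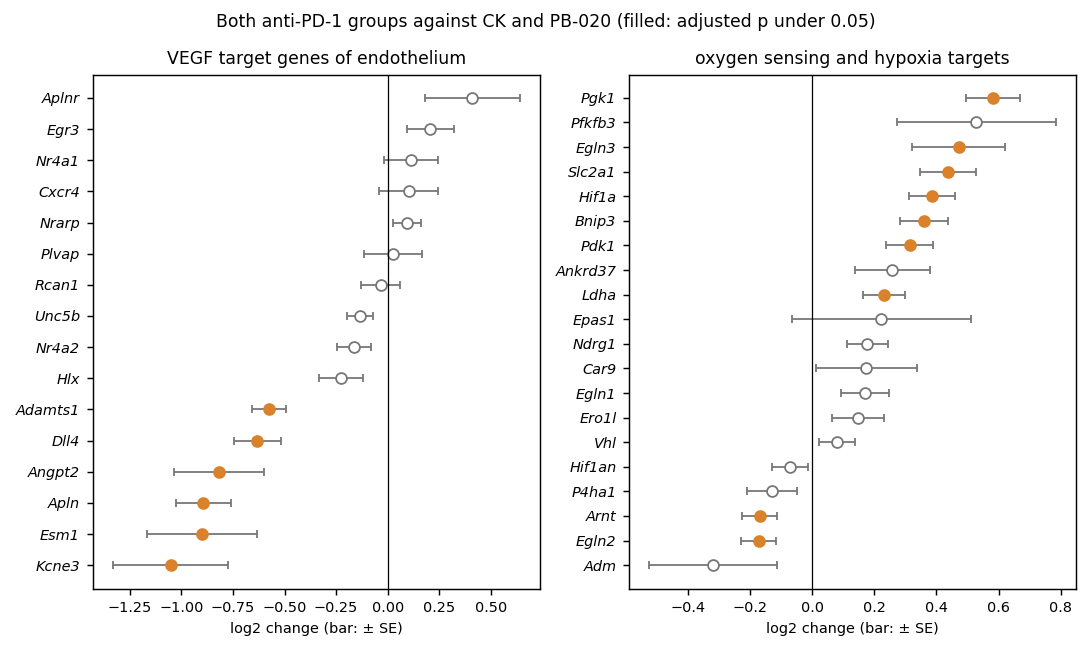
Log2 changes (± SE) over both anti-PD-1 groups against CK and PB-020, for 16 VEGF target genes of endothelium on the left and 20 genes of oxygen sensing and hypoxia on the right. Filled points have an adjusted p under 0.05, and they comprise 6 lower VEGF targets on the left and, on the right, 7 higher and 2 lower genes.

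Among genes that act beneath the receptors, the changes went both ways. Of 41 signaling genes, 2 were called higher and 7 lower in the combination, and 2 and 2 under anti-PD-1 alone, against 17.9% and 8.26% of all genes called in either direction. Leaving out anti-PD-1 tumor 1 gave 8 higher and 7 lower in the combination and 1 and 1 under anti-PD-1 alone, and without CK tumor 3 they were 1 and 4, and 1 and 0. All-gene calls in the combination were 3344 and 1577 in these fits, against 2434 over all tumors. Under anti-PD-1 alone they were 625 and 637, against 1120. Nos3, the endothelial nitric oxide synthase, fell in both (log2 changes -0.59 and -0.60 for combination and anti-PD-1), as did Ppp3ca (-0.53 and -0.43), a calcineurin subunit, while Map2k1, a kinase of the ERK cascade, rose (0.38 and 0.42). Nos3 FPKM was 2.15 to 2.32 in CK, 1.59 to 2.10 under PB-020 and 1.42 to 1.64 in the 6 tumors that received the antibody. Sh2d2a, an adaptor that binds Kdr and is also expressed by T cells, rose in the combination (1.08). There 10 of 11 T cell markers were called higher, against 8.35% of all genes. Their summed level was 39.2 to 63.9 FPKM against 15.03 to 19.9 FPKM in CK. The part of T cells in the Sh2d2a value was not tested. Plcg1, the phospholipase that VEGFR2 recruits, was called lower in the combination (-0.24).

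Of 13 neuropilin partner genes, namely class 3 semaphorins, plexins and Gipc1, which encodes a protein that binds the neuropilin tail, 12 were tested and 3 were called lower in the combination, against 0 by edgeR under anti-PD-1 alone, where 5 had an unadjusted p under 0.05. All genes tested had 9.6% called lower in the combination and 4.08% under anti-PD-1 alone, where 26.6% had an unadjusted p under 0.05. Sema3c, a secreted neuropilin ligand, had 31.6, 36.2 and 25.3 FPKM in CK and 13.2, 16.7 and 15.4 FPKM in the combination, a log2 change of -1.02 (SE 0.292, edgeR adjusted p = 0.042). Sema3a (-0.82) and the receptor gene Plxna2 (-0.40) were the other 2, and without CK tumor 3 only 1 gene of the list was called lower. Leaving out anti-PD-1 tumor 1 gave 2 called lower and 1 higher. Among all genes, calls in either direction were 1577 without CK tumor 3 and 3344 without anti-PD-1 tumor 1, against 2434 over all tumors. Whether the changes of this list differ from those under anti-PD-1 alone was tested in the combination against anti-PD-1. There edgeR called 0 of 12 and 1 had an unadjusted p under 0.05, against 0% and 7.26% of all genes. Of the other ligand and ligand-processing genes, 6 of 8 were tested, and Vegfd, a further Flt4 ligand, was called higher over both anti-PD-1 groups (log2 change 0.47, SE 0.123, edgeR adjusted p = 0.016), where 11.8% of all genes were called higher. Its FPKM was 3.41 to 4.44 in CK, 4.30 to 4.98 under PB-020, 5.17 to 7.42 under anti-PD-1 and 4.54 to 6.65 under the combination.

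In the combination against CK, the other marker lists gave the counts below, beside 8.35% of all genes tested called higher and 9.6% called lower. An unadjusted p under 0.05 was reached by 33.9% of all genes. Among lymphatic markers 1 of 4 tested was called lower (Lyve1, -2.23, a gene that some macrophages also express), among pericyte markers 3 of 9 lower (Kcnj8, Abcc9 and Mcam), and among fibroblast markers 1 of 11 higher (Postn) and 2 lower (Dcn and Pdgfra). Called or not, 2 of 4 lymphatic, 3 of 9 pericyte and 8 of 11 fibroblast markers had positive log2 changes. Their list medians were 0.83, -0.47 and 0.47, against -0.0026 for all genes. With anti-PD-1 tumor 1 left out, 5 pericyte markers were called lower and 5 fibroblast markers higher, and without CK tumor 3, 1 pericyte marker was called lower and 0 fibroblast markers higher. All-gene calls in either direction were 3344 and 1577 in these fits, against 2434 over all tumors. Plasmacytoid dendritic markers had 1 of 4 called higher and 1 lower, and macrophage, muscle and adipocyte markers had 0 called by edgeR, with 2, 0 and 0 at an unadjusted p under 0.05 and with at most 4 macrophage, 1 muscle and 0 adipocyte genes called lower and 1 macrophage gene called higher in any alternative. All 5 erythroid genes tested, which report red blood cells, were called lower with a median log2 change of -2.99, and their summed level was 679 to 1556 FPKM in CK and 127 to 184 FPKM in the combination. The part of blood content in the vessel genes was not tested.

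PB-020 alone changed no member beyond the spread between tumors. In PB-020 against CK, edgeR called 0 of 9 members and 0% of all genes, and 0 of 9 had an unadjusted p under 0.05 against 5.46% of all genes. DESeq2 also called 0 of the 9. The largest difference was that of Flt4 (log2 change -0.37, 95% interval -0.90 to 0.16), and 7 of 9 members had a negative value. Pooled over both levels of the antibody (n = 6 each), PB-020 again gave 0 of 9 calls by edgeR and by DESeq2 and 0 of 9 at an unadjusted p under 0.05, against 0% and 10.9% of all genes. There Pgf had -0.35 with a 95% interval of -0.75 to 0.05, which includes the -0.67 seen with the antibody.

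The combination was then set against each single treatment. Against anti-PD-1, 0 of 9 members were called by edgeR and by DESeq2, against 0% of all genes. Vegfc alone had an unadjusted p under 0.05, against 7.26% of all genes (log2 change -0.50, unadjusted p = 0.039, edgeR adjusted p = 0.67). Against PB-020, 0 of 9 were called by both tools, against 3.35% of all genes in edgeR. Pgf alone had an unadjusted p under 0.05, against 22.4% of all genes (1.69-fold lower, log2 change -0.76, SE 0.265, unadjusted p = 0.013, edgeR adjusted p = 0.12). The combination and PB-020 tumors did not overlap for Pgf, against 31.1% of all genes without overlap. The interaction, which asks whether the combination departs from the sum of the single log2 changes, gave 0 of 9 calls by edgeR and by DESeq2 against 0% of all genes. Vegfa was the only member with an unadjusted p under 0.05 there, against 2.29% of all genes.

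Of the other 13554 genes tested, those whose residuals were most like a member's over the 12 tumors were named by a rule of 3 per member. For Kdr they were Dip2b (r = 0.972), Pdk4 (0.97) and Ppp1r16b (0.968), and for Nrp1 they were Wdfy4 (0.952), Sytl1 (0.949) and again Dip2b (0.945). Flt1 was most like Cacna1c (0.958), Fn1 (0.954) and R3hdm2 (0.952), and Flt4 most like Slc44a2 (0.972), Taldo1 (0.961) and Lrrc8c (0.95). Without anti-PD-1 tumor 1 these 12 values lay between 0.857 and 0.97. Vegfa was most like Gm40848 (0.957), Pgm2l1 (0.951) and Sowahc (0.946), Vegfb most like Tmem109 (0.943), Grhpr (0.939) and Bcor (0.92), and Vegfc most like Dck (0.956), Eogt (0.914) and Srrm2 (0.914). Pgf was most like Depp1 (0.945), Gm14025 (0.944) and Zfp960 (0.915), and for Nrp2 Smcr8 (0.94) and Epg5 (0.94) are given. These are descriptions over shared libraries, chosen as the highest of many values.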

How the data were processed

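RNA sequencing of the 12 tumors was described by the study as paired reads aligned to mm10 or hg19 with Bowtie2 at default settings and quantified with RSEM, and the labels' processing notes name GRCm38.p6, HISAT and Bowtie2 with no role. Tool versions and annotation are not given in the sources used here. The authors deposited expected counts (estimated, not normalized, 91% whole), FPKM (scaled by the authors for transcript length and depth) and TPM (scaled by the authors to a fixed library total). The authors' 12 group averages were not used. Groups came from the sample titles.

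Expected counts were rounded and analysed in R 4.3.3. Of 18211 genes, 13563 passed filterByExpr (minimum count 10), libraries were scaled by TMM, and a robust quasi-likelihood model with 4 group means was fitted to all 12 libraries with edgeR 4.0.16. Benjamini-Hochberg adjustment of the two-sided p values covered all genes tested, and a gene was called at an adjusted p under 0.05. The script was tested on simulated data. Residual correlations used log2 CPM (prior count 2) minus group means. Alternatives were DESeq2 1.42.0, library size scaling, other filters, a replicate block, limma 3.58.1 on log2(FPKM + 1) and log2(FPKM + 0.1), only the groups compared and leaving out each tumor. The thresholds of the study's methods were applied to edgeR values and also with a Student's t test on FPKM. Depth was 16545394 to 17217035 expected counts per tumor, and intervals cover counting error and spread between tumors. Replicate pairs differed by 5.34 to 33.5 times sampling noise (chi-square per degree of freedom), so none was counted as a duplicate. Promoters and positions are RefSeq on GRCm38.p6, matched by gene number for 18091 genes. Exons of Nrp1 overlap Mir1903 on the same strand, and Nrp2 overlaps Gm29083 and Gm37121 outside exons. All 9 members are named by rule, with 3 most alike genes each (1 of those of Nrp2 is not reported here), and from the other lists genes past the test and their counterexamples. The members and the 15 gene lists were chosen with earlier results of these data known.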

Additional observations from a re-analysis of the deposited data

Results flagged for a closer look

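Vegfa was flagged because its PB-020 change was positive without the antibody and negative with it. Neither change was called by edgeR (unadjusted p = 0.096 and 0.16), so a difference in direction is not established. Without it, the PB-020 tumors had 114, 132 and 104 FPKM against a CK mean of 103 FPKM, so all 3 lay above it. With it, the combination tumors had 128, 114 and 112 FPKM against an anti-PD-1 mean of 131.8 FPKM, so all 3 lay below it. The difference of the log2 changes was -0.35 (interaction, SE 0.152, 95% interval -0.68 to -0.02, unadjusted p = 0.037, edgeR adjusted p = 1 over all genes tested), so it failed the correction. Leaving out CK tumor 3, the lowest CK tumor for Vegfa, gave an interaction of -0.26 (SE 0.154, edgeR unadjusted p = 0.12).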

How the results depend on the processing

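Depth limited Pgf, Flt4 and Vegfc most, with 49 to 158, 55 to 106 and 49.8 to 131 counts per tumor. In the combination against CK, 1 member was called, and 2 were called by DESeq2 (Pgf and Nrp1), 2 by limma on log2(FPKM + 0.1) (Pgf and Nrp1) and 3 with only the groups compared (Pgf, Flt4 and Nrp1). The study's thresholds called 2 on edgeR values (Pgf and Flt4). With a Student's t test on FPKM, the kind of test the study names, they called 2 (Flt4 and Nrp1). Leaving out 1 tumor gave 0 to 3. In anti-PD-1 against CK, DESeq2 called 1 (Vegfa) where edgeR called 0, and leaving out 1 tumor gave 0 to 2. In the combination against PB-020, 1 member, Pgf, was called with only the groups compared. The study's thresholds called 1 on edgeR values and 1 with the t test on FPKM. Over both anti-PD-1 groups, leaving out 1 tumor gave 1 to 3. Of all genes, anti-PD-1 against CK gave 1120 calls with edgeR over 4 groups and 3 with only the groups compared, 137 without CK tumor 2, 238 without anti-PD-1 tumor 3 and 1905 without anti-PD-1 tumor 2. The combination against PB-020 gave 455 calls and 0 to 1269 with 1 tumor left out, 1085 by DESeq2 and 1535 with only the groups compared. The combination against CK gave 2434 calls and 864 to 3344 with 1 tumor left out, and the cause of these differences was not tested.

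Same-numbered tumors did not vary together, with correlations of their deviations from -0.21 to 0.289 and at most 1 of 3 tumors closest to its own number, so the numbers were not read as pairs. With the number as a replicate block, 1 member (Pgf, log2 change -0.98) was called in the combination against CK, 1 over both anti-PD-1 groups and 0 in the other comparisons, so no call changed, and all-gene calls went from 2434 to 2010, from 1120 to 870 and from 3279 to 2711 in the combination, in anti-PD-1 and over both anti-PD-1 groups.

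Signs turned only for uncalled values. In the combination against anti-PD-1, Flt1 was 0.0068 by limma on log2(FPKM + 1) and 0.0089 on log2(FPKM + 0.1), and the interaction of Pgf was 0.0104 on log2(FPKM + 1). With 1 tumor left out, log2 changes in the combination against anti-PD-1 ran from -0.179 to 0.164 (Flt1), -0.409 to 0.0322 (Flt4), -0.281 to 0.253 (Kdr), -0.373 to 0.0549 (Nrp1) and -0.0227 to 0.0956 (Vegfb). Against PB-020 they ran from -0.195 to 0.0171 (Flt1), -0.421 to 0.0324 (Flt4), -0.198 to 0.0395 (Kdr), -0.0568 to 0.108 (Vegfa) and -0.0533 to 0.333 (Vegfc). In the interaction they ran from -0.0398 to 0.42 (Flt4), -0.0764 to 0.452 (Kdr), -0.107 to 0.316 (Nrp1), -0.134 to 0.0175 (Nrp2), -0.491 to 0.0547 (Pgf) and -0.133 to 0.0271 (Vegfb). Against CK they ran from -0.528 to 0.00682 for Kdr under anti-PD-1, from -0.014 to 0.128 for Nrp2 and -0.0453 to 0.141 for Vegfc in the combination, and from -0.484 to 0.063 for Pgf and -0.259 to 0.128 for Vegfc under PB-020. For PB-020 over both levels of the antibody they ran from -0.243 to 0.0267 (Kdr) and -0.0277 to 0.0718 (Vegfa).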
